A study of Homo sapiens with 12 samples.

Results

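The memory screen asked which protein domains, recruited to a reporter gene in ordered pairs, leave it off after the recruiting signal has been removed. It comprises 4 of the 12 libraries of a study of domain pairs: a bound and an unbound cell fraction in each of 2 replicates, which were infected separately. The cells were K562, a human chronic myeloid leukaemia line, carrying the reporter plasmid pJT039 and a lentiviral library in which the DNA-binding protein rTetR was fused to a first and a second domain. Infected cells (about 600 per library member) were selected with blasticidin for 7 days, given doxycycline at 1000 ng/mL for 5 days, starting on day 8 after infection, and then kept for 5 days without it. The repression screen, used below as the comparison, had the same reporter line, the same library and 5 days of doxycycline with no time off it, also in 2 replicates.

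Of 9983 ordered pairs with at least 1 read in the series, 9337 were kept, each with 5 or more reads in either fraction and 50 or more in both together in each replicate. They joined 100 domains: 79 candidate domains and 21 controls, of which 11 were tiles of the dystrophin protein DMD and 10 were random sequences. Of the kept pairs, 420 held 2 controls, 3131 held 1 and 5786 held none. Pairs are written as first + second position, and protein names follow the files. A score is the log2 ratio of bound to unbound reads of a pair, each divided by its library total, minus the median score of the pairs of 2 controls in that replicate. The submitters' design text divides ON by OFF reads, and bound is taken as ON. A low score thus means that a pair had relatively more of its reads in reporter-off cells than pairs of 2 controls had. It does not give the share of cells that were off. The sources used here do not give the method that separated the fractions.

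As background, rTetR binds its operator only while doxycycline is present, so that washing the drug out ends the recruitment. A gene that was silenced during recruitment can then come back on, or it can stay off through cell divisions, which is called epigenetic memory. KRAB domains recruit the corepressor TRIM28 and with it the histone methyltransferase SETDB1 and HP1 proteins, which deposit and read methylated lysine 9 of histone H3, a mark known to be passed on to daughter cells. Polycomb proteins write and read other histone marks, and SUMO is a small protein that is attached to many corepressors.

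The 4 libraries held between 15692671 and 41167818 read pairs. The median count per pair, over the 9983 pairs of the series with zeros included, ranged from 712 to 1690. One library stood apart. Pairs with the same domain in both positions took 14.1% of the reads in the bound and 1.33% in the unbound library of replicate 1 (95% Wilson interval 1.32 to 1.33%, counting error only), against 10.6% and 10.5% in replicate 2. Their scores were above 0 for 100 of 100 such pairs in replicate 1 (median 3.22) and for 22 of 100 in replicate 2 (median -0.31). The lowest of them in both replicates was the KRAB variant P21506 paired with itself, at 0.37 and -3.59. None of these 100 pairs was called by edgeR in the test used below (6 had an unadjusted p of 0.05 or less), and the counts of domains and pairs called are also given without them.

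Across all 9337 pairs, which share libraries, domains and depth, the scores of both replicates correlated weakly (Pearson r = 0.318, Spearman rho = 0.351). The median score of a domain over its control partners was more alike between replicates (r = 0.704, rho = 0.676 over the 79 candidate domains). The domains are therefore described first, and single pairs second.

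**Figure D1:**
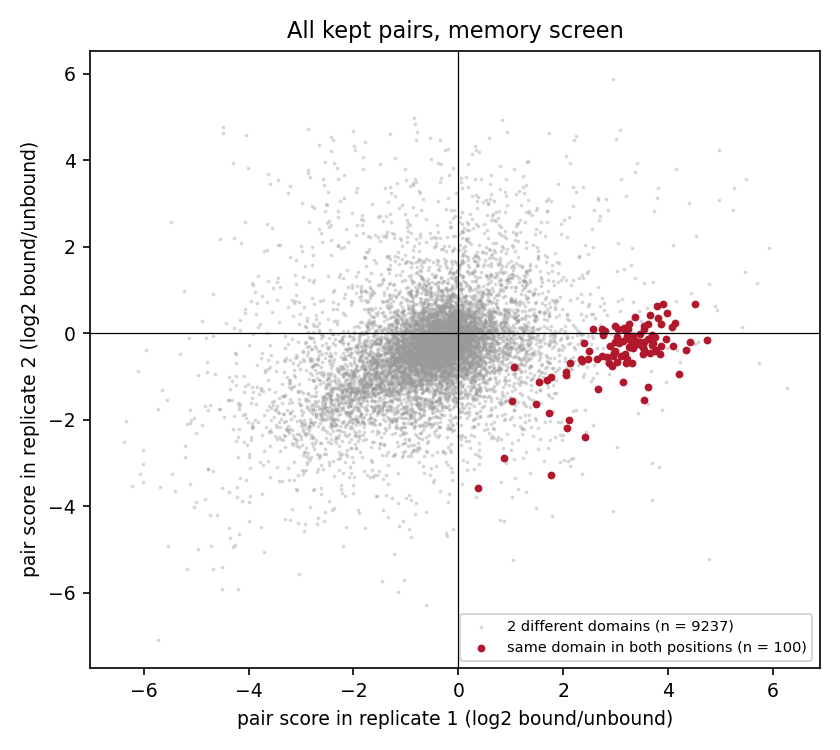
Scores of the 9337 kept pairs in replicate 1 (horizontal axis) and replicate 2 (vertical axis), in log2 bound over unbound relative to pairs of 2 controls; each point is 1 ordered pair. The 100 pairs of the same domain (red) lie at a median of 3.22 in replicate 1 and -0.31 in replicate 2, apart from the 9237 other pairs (grey).

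Domain effects were measured on reads summed over all pairs that join a domain with a control, in either position. Of the 79 candidate domains, 30 had a lower bound share than the controls (edgeR quasi-likelihood test, Benjamini-Hochberg over 100 domains, adjusted p at or below 0.05), and 1, the WW domain of KIBRA, had a higher one. Over all 100 domains 31% were called lower and 2% higher, since 1 DMD tile passed in each direction. In 28 of the 30 the median score was below 0 in both replicates, and 8 had an effect at or below -1 on the log2 scale. The calls used these same 2 replicates, so the shared sign is partly built in. The 21 control domains had effects between -0.26 and 0.57 with an SD of 0.19. The fit shared its spread largely between domains, so an SE or adjusted p does not measure how closely the replicates of 1 domain agree. The count of lower domains was 34 without pairs of the same domain. It was 14 without replicate 1, which holds the library that stood apart, and 20 without replicate 2; both come from a fit with the activation and repression libraries, in which the lone bound and unbound memory libraries are assumed to vary like those. The count was 7 when limma tested the scores of the 2 replicates, and total-count scaling, which shifts all values up by 0.50 and puts the control domains at a median of 0.45, gave 8 lower and 36 higher (9 and 26 with trimmed means over all pairs).

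**Figure D2:**
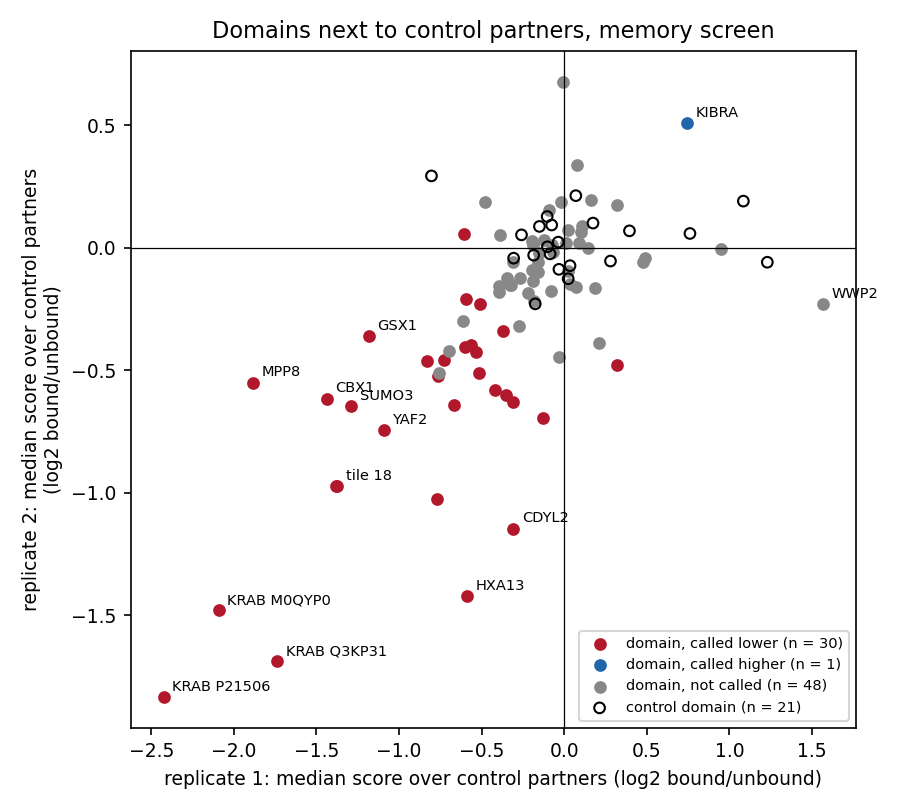
Median score of each domain over its control partners in replicate 1 (horizontal axis) and replicate 2 (vertical axis), in log2 bound over unbound; each point is 1 domain. The 3 KRAB variants lie at the lower left, at -1.48 or lower in both replicates, and the 21 control domains (open circles) lie around 0 with a wider spread in replicate 1.

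The KRAB domain variants were the lowest of all domains. KRAB P21506, summed over 40 control partners, had 27913 bound and 234011 unbound reads in replicate 1 and 33861 and 81264 in replicate 2. Scaled to the control pairs, this was 0.178 and 0.283 bound reads for each unbound one, a 4.45-fold lower bound-to-unbound ratio (log2 -2.15, SE 0.15). Its score was below 0 with 40 of 40 control partners in replicate 1 and with 39 in replicate 2, so that nearly every pair showed it. KRAB M0QYP0 had 149922 bound and 990022 unbound reads in replicate 1 and 145471 and 279095 in replicate 2, a 3.53-fold lower ratio (-1.82, SE 0.28). KRAB Q3KP31 had 36547 and 175371 reads in replicate 1 and 39968 and 83479 in replicate 2, a 3.14-fold lower ratio (-1.65, SE 0.14). Its replicate medians were the closest of the 3 at -1.74 and -1.69. Adjusted p in edgeR was 2.2e-16 for P21506, 4.3e-08 for M0QYP0 and 2.9e-18 for Q3KP31. All 3 were called in 15 of 17 other settings. The 2 exceptions used random-sequence partners only or first-position pairs only; there edgeR called no domain (34 and 25 had an unadjusted p of 0.05 or less), the fits estimated 1.73 and 1.43 prior degrees of freedom where the fit reported here had an infinite number, and the 3 effects kept their direction.

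The KRAB list also holds the DUF3669 domain of ZN777 (gene ZNF777), a KRAB zinc finger protein, which fell by 0.39 (SE 0.13). All 4 of its members were thus called lower, with a median of -1.74, against a median of -0.19 over all 100 domains. ZN777 was the exception to the size of the effect, and under total-count scaling its value turned to 0.11. None of the 4 members of the list of variant KRAB and NIZP1 domains was called. The values were -0.23 (SE 0.11) for the KRAB domain of NIZP1, -0.16 for ZN473, -0.15 for the C2HR domain of NIZP1 and 0.20 for ZN597. The KRAB domain of ZFP28, outside both lists, had -0.25 (SE 0.12) and was not called.

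Heterochromatin proteins were lower too. In the list of HP1 and chromodomain proteins 3 of 4 members were called lower, with a list median of -0.87. With control pairs set to a median of 0, no member was called lower, while the list median was -0.84. That fit estimated 2.97 prior degrees of freedom, where the fit reported here had an infinite number. The chromo shadow domain of CBX1 (HP1-beta; chromosome 17, 48070059 to 48101478, GRCh38), the part through which HP1 proteins pair and bind partners, had 50981 bound and 218034 unbound reads in replicate 1 and 60490 and 68736 in replicate 2. It fell by 1.13 (SE 0.14), with replicate medians of -1.44 and -0.62, and its call was lost in 4 of 17 other settings. The chromodomain of MPP8, a subunit of the HUSH silencing complex (gene MPHOSPH8, chromosome 13, 19633659 to 19673441), had 14270 and 60550 reads in replicate 1 and 20892 and 20587 in replicate 2. Its effect was -1.02 (SE 0.21), but the replicate medians of -1.88 and -0.55 differed by more than those of CBX1. The MPP8 call was lost in 6 of 17 other settings, among them the exclusion of replicate 1, total-count scaling and limma on the scores. CDYL2, a chromodomain protein of the CDY family, fell by 0.71 (SE 0.26), with the larger part in replicate 2 (-1.15, against -0.31 in replicate 1). CHD3, a chromatin remodeller of the NuRD complex, had a value of 0.15 (SE 0.20) and was not called.

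Polycomb and SUMO domains were also among the lower ones. YAF2, a subunit of variant Polycomb repressive complexes (chromosome 12, 42157104 to 42238248), had 19928 bound and 58303 unbound reads in replicate 1 and 16821 and 22181 in replicate 2. It fell by 0.96 (SE 0.19), to 0.51 and 0.52 bound reads for each unbound one after scaling, with little difference between the replicates. PCGF2, a RING protein of the same complexes, fell by 0.47 (SE 0.12), and SCMH1 had -0.27 (SE 0.11) and was not called, which makes 2 of 3 in that list. The SUMO-like fold of SUMO3 (chromosome 21, 44805617 to 44818062) had 40965 and 157315 reads in replicate 1 and 53509 and 56481 in replicate 2, and fell by 1.00 (SE 0.15; replicate medians -1.29 and -0.65). Its call was lost in 4 of 17 other settings. HERC2, listed with SUMO3 because the protein is a ubiquitin ligase, is present here with its cytochrome b5-like domain and fell by 0.55 (SE 0.12). Its medians in replicates 1 and 2 differed, at 0.28 and -0.36 when first and -0.61 and -1.96 when second. With control pairs set to a median of 0, neither SUMO3 nor HERC2 was called, at effects of -0.97 and -0.52. The signs of the Polycomb list depended on the scaling: its median was -0.47 relative to control pairs and 0.03 under total counts.

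Of the 23 silencer tiles, stretches of proteins that the files name by gene identifier and tile number only, 12 were called lower (list median -0.41, and 0.09 under total counts). Over all 100 domains 31% were called lower. The tile calls depended on the scaling: 4 were lower with control pairs set to a median of 0. With trimmed means over all pairs 2 were lower and 4 higher, and under total counts 1 was lower and 7 higher. The lowest was tile 18 of ENSG00000100307. It had 115495 bound and 461272 unbound reads in replicate 1 and 108344 and 153543 in replicate 2, and fell by 1.24 (SE 0.12; replicate medians -1.37 and -0.97). Tile 118 of ENSG00000076108 had 282046 and 982602 reads in replicate 1 and 242259 and 308847 in replicate 2, and fell by 1.06 (SE 0.35). Of the named domains, tile 18 was the only one besides the KRAB variants to be called in 15 of 17 other settings.

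Homeodomains were lower as well. The homeodomain of HXA13 (gene HOXA13, chromosome 7, 27194364 to 27200091), a patterning factor, had few reads, 6649 bound and 17236 unbound in replicate 1 and 4762 and 7754 in replicate 2, over 33 control partners. Its effect of -1.03 had an SE of 0.32, and its call was lost in 8 of 17 other settings, among them the exclusion of either replicate. GSX1, the other homeodomain, fell by 0.91 (SE 0.16). Its medians in replicates 1 and 2 were -0.71 and -0.33 when first and -2.27 and -0.54 when second. With control pairs set to a median of 0, neither homeodomain was called. KMT2B, a histone H3 methyltransferase, fell by 0.65 (SE 0.22), and TOX, an HMG-box protein and the single one of 4 members called in the corepressor list, fell by 0.50 (SE 0.16).

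Other lists had few called members. None of 5 members of the transcription factor list was called (median -0.28), nor either of the 2 coactivator domains, NCOA2 (-0.02, SE 0.16) and CRTC2 (-0.20, SE 0.10). In the list of SWI/SNF and histone methyltransferase complex subunits, 1 of 5, the N-terminal Requiem domain of DPF1, was lower (-0.40, SE 0.14). Of 9 WW and SH3 domains, APBB1 fell by 0.31 (SE 0.12) and KIBRA rose. KIBRA (gene WWC1, chromosome 5, 168291645 to 168472303) acts in Hippo signalling as a scaffold. It had 37018 bound and 33119 unbound reads in replicate 1 and 31526 and 14752 in replicate 2. Its bound-to-unbound ratio was 1.56-fold higher (0.64, SE 0.18, adjusted p 0.0032 in edgeR). WWP2, a ubiquitin ligase with WW domains, showed how far replicates could part, with medians of 1.57 in replicate 1 and -0.23 in replicate 2 and an effect of -0.04 (SE 0.15). Of 12 domains in no list, 2 were called lower, among them KMT2B.

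**Figure D3:**
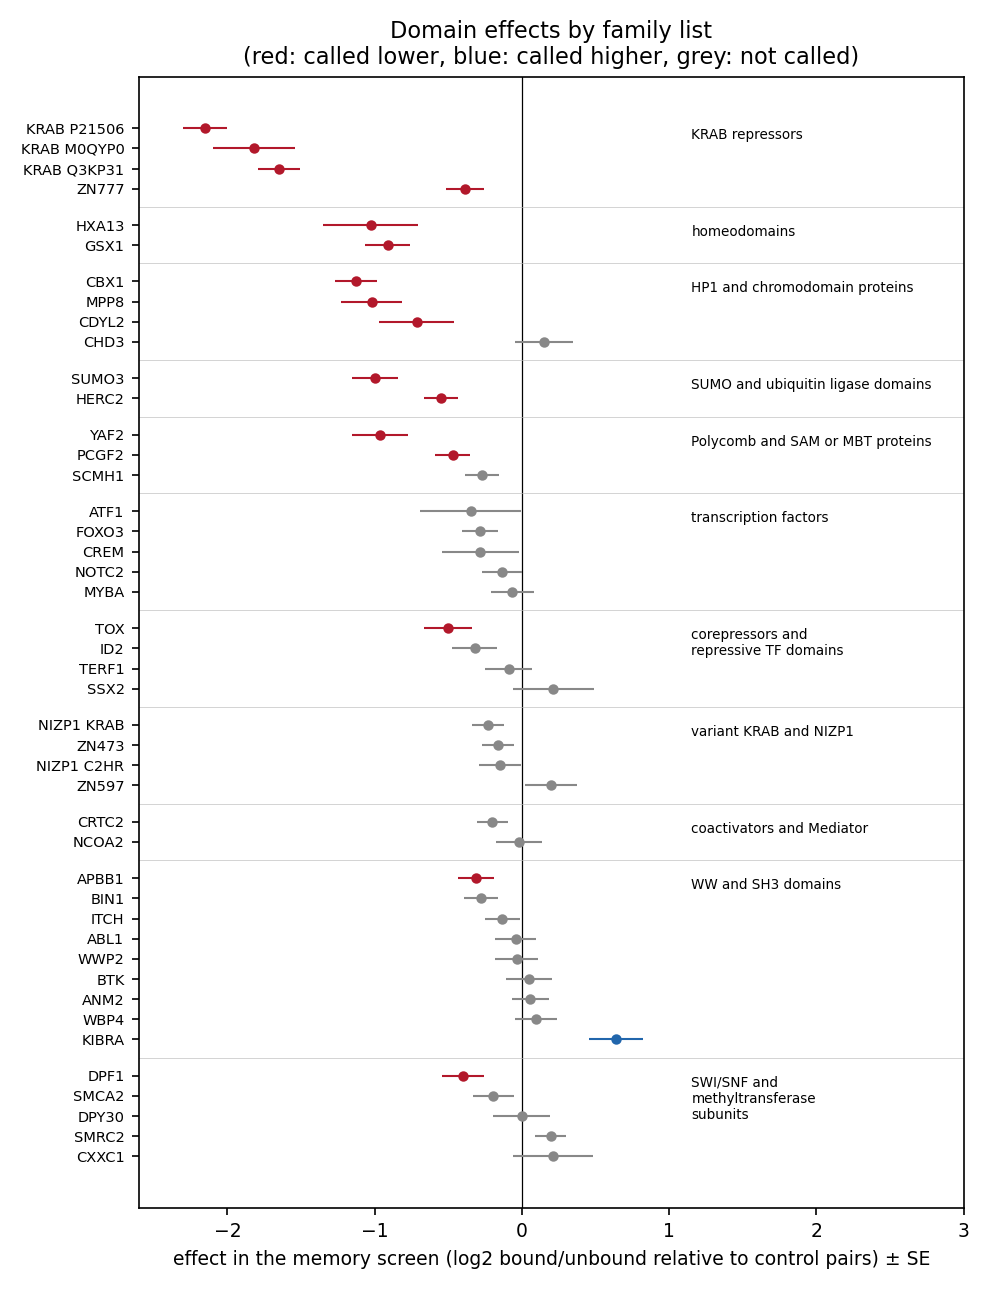
Effect of each listed domain next to control partners in the memory screen (log2 bound over unbound relative to control pairs; points are edgeR estimates, bars ± SE, n = 2 replicates), grouped by family list without the silencer tiles, the controls and the 12 unlisted domains. The SEs rest largely on a spread shared between domains. The 3 KRAB variants lie at or below -1.65, the other called domains between -1.13 and -0.31, and KIBRA is the one domain called higher.

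Next to other candidate domains, the same domains were called lower again, but so were most others. Summed over non-control partners, 66 of the 79 domains were called lower and 0 higher in edgeR (75% and 0% of all 100), and all 30 domains lower with control partners were among them. Since each such pair holds a second candidate, the values have to be read against the median of all 100 domains, -0.58, and 9 of the 21 controls were called too. Relative to that median, KRAB P21506 lay at -1.74, KRAB M0QYP0 at -1.46, KRAB Q3KP31 at -1.36, CBX1 at -0.87 and MPP8 at -0.69, while KIBRA lay at 0.92. Others of the 30 lay closer to the median, among them DPF1 at -0.28 and APBB1 at -0.13. The control DMD tile 182 lay at -0.08. ZN777 had effects of -0.64 when first and -0.61 when second, near the median itself. With trimmed means over all pairs the counts were 21 lower and 3 higher.

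Among single pairs, 966 of 9337 (10.3%) were called lower and 29 (0.311%) higher in edgeR with Benjamini-Hochberg adjustment over all pairs. Of the pairs without a control 762 of 5786 were lower and 14 higher, and of the 420 pairs of 2 controls 2 were lower and 2 higher. All 966 lower pairs had a score below 0 in both replicates, and 776 had a score of -1 or less in both. The pairs were called on these same 2 replicates, so the shared sign is largely built in. Without any test, 1290 pairs (13.8%) scored -1 or less in both replicates, 17.4% of the pairs without a control and 1.90% of the pairs of 2 controls. The calls rest on the spread shared by all pairs: there were 334 lower pairs without replicate 2 and 1 without replicate 1, 2657 with DESeq2, and 0 when limma tested the 2 scores of each pair (1688 at an unadjusted p of 0.05 or less). Without pairs of the same domain 1287 pairs were lower and 63 higher. The split between lower and higher pairs was 298 to 54 under total counts and 609 to 118 with trimmed means over all pairs.

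KRAB variants were present in 424 of the 966 lower pairs (43.9%), although they occurred in 6.14% of all kept pairs, and 74.0% of the pairs with a KRAB variant were called lower. A domain that was called lower next to controls was present in 951 lower pairs (98.4%), against 51.1% of all pairs. Those domains were called on the pairs with 1 control in these libraries, and 202 of the 966 lower pairs hold 1 control. The overlap is therefore partly built in and is a description only. By domain, 84.1% of the pairs with KRAB M0QYP0 were lower, 77.4% with KRAB P21506, 60.7% with KRAB Q3KP31, 56.0% with tile 18 of ENSG00000100307 and 42.6% with CBX1. MPP8, with an effect close to that of CBX1 but fewer reads, had 15.1%.

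Pairs without a control and of different domains were lower the more lower domains they held. With 0, 1 and 2 such domains (2165, 2730 and 812 pairs), the median score was -0.19, -0.85 and -1.47 in replicate 1 and -0.13, -0.62 and -1.10 in replicate 2. The share of pairs called lower was 0.600%, 17.0% and 35.1%, and the share scoring -1 or less in both replicates was 3.28%, 21.9% and 41.4%. The lower domains were chosen on these libraries, so the order of the classes is a description. A single-domain score is the median score of a domain next to controls in its position. For the pairs of 2 lower domains the score was higher than the sum of both single-domain scores by a median of 0.26 ± 0.02 (SD, n = 2 replicates). It was lower than the single-domain score of the stronger domain by 0.17 in replicate 1 and 0.16 in replicate 2. Both single-domain scores come from the libraries that chose the lower domains, so these medians are a description too. For no single pair of 5687 did the deviation from the sum pass (0% called above and 0% below; limma, 457 at an unadjusted p of 0.05 or less).

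**Figure D4:**
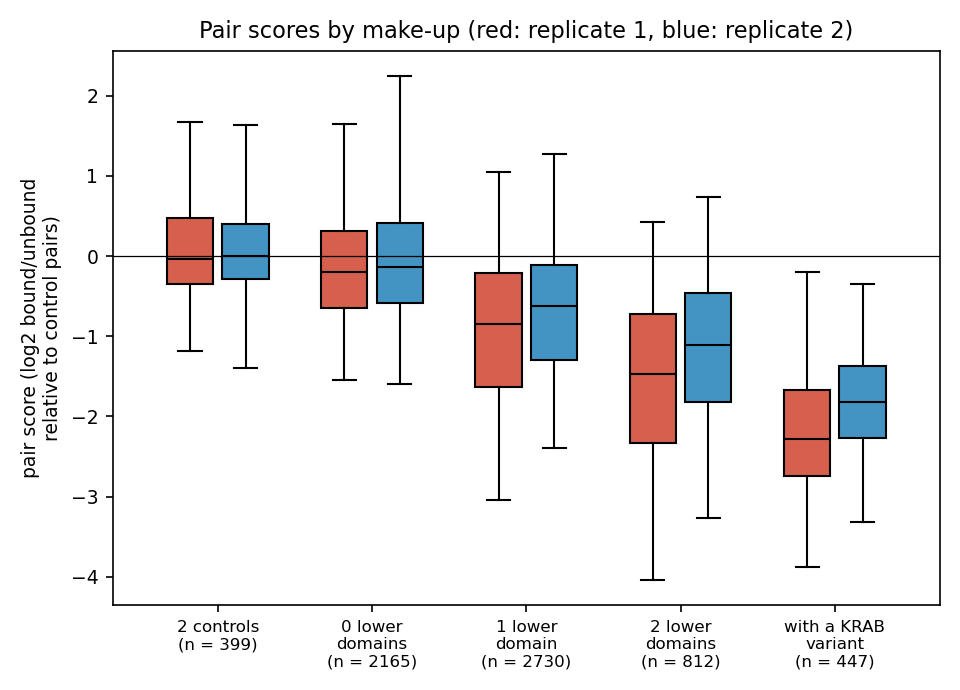
Scores of pairs of different domains (log2 bound over unbound relative to control pairs; boxes show quartiles and median, whiskers the 5th and 95th percentiles; red for replicate 1, blue for replicate 2), for pairs of 2 controls, pairs without a control by the number of domains called lower next to controls, and the 447 pairs without a control that hold a KRAB variant. Medians fall from -0.19 and -0.13 with 0 lower domains to -1.47 and -1.10 with 2, and lie at -2.28 and -1.82 with a KRAB variant.

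Of the 10 lowest pairs called with at least 5 reads in each library, KRAB P21506 was in 4 and DPF1 in 4. MPP8 + KRAB Q3KP31 had 7 bound and 395 unbound reads in replicate 1 and 19 and 569 in replicate 2. Its scores were close to each other at -5.18 and -5.46. The effect was a 40.5-fold lower bound-to-unbound ratio (log2 -5.34, SE 1.00, adjusted p 0.0019 in edgeR). KRAB P21506 + CBX1 had 26 and 1715 reads in replicate 1 and 88 and 752 in replicate 2 (-4.53, SE 0.75), and KRAB P21506 + CDYL2 had 10 and 281, and 24 and 407 (-4.43, SE 1.11). KRAB P21506 was as low with BTK, an SH3 domain that was not called next to controls, with 13 and 1047 reads in replicate 1 and 51 and 410 in replicate 2 (-4.60, SE 0.96).

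In its 4 pairs of this group DPF1 held the first position. DPF1 + KRAB P21506 had 57 bound and 5746 unbound reads in replicate 1 and 90 and 666 in replicate 2 (-4.75, SE 0.70). DPF1 + CBX1 had 27 and 2821 reads in replicate 1 and 100 and 653 in replicate 2 (-4.65, SE 0.80). DPF1 was also joined with a silencer tile (-4.65, SE 0.66) and with HXA13 (-4.48, SE 1.38) in this group. In all but the pair with the silencer tile the score was lower in replicate 1, at -6.02 against -3.44 for KRAB P21506. The other 2 of the 10 joined a silencer tile with HXA13 (-4.46, SE 1.12) and MPP8 with a silencer tile (-4.40, SE 1.27).

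Ranked by the higher of both replicate scores, further pairs had very few bound reads. DPY30 + HXA13 had 1 bound and 198 unbound reads in replicate 1 and 2 and 148 in replicate 2, and YAF2 + CDYL2 had 2 and 189, and 2 and 63, and was not called (adjusted p 0.11 in edgeR). MPP8 + KRAB P21506 had 16 and 458 reads in replicate 1 and 4 and 206 in replicate 2 (-5.15, SE 1.41). MPP8 stood in the first position of 4 of these 10 pairs.

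The highest pairs held SSX2, CHD3 or KIBRA in the second position. WBP4 + SSX2 had 305 bound and 15 unbound reads in replicate 1 and 223 and 8 in replicate 2 (4.58, SE 1.42). WWP2 + KIBRA had 441 and 49 reads in replicate 1 and 619 and 41 in replicate 2 (3.55, SE 0.90). CHD3 followed behind BTK (3.29, SE 0.95) and behind the C2HR domain of NIZP1 (2.83, SE 0.82).

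The lowest partners of KRAB M0QYP0 and KRAB Q3KP31 included MPP8 and DPF1 for both. MPP8 + KRAB M0QYP0 had 7 bound and 701 unbound reads in replicate 1 and 23 and 102 in replicate 2, and was not called (-4.31, SE 1.46, adjusted p 0.073 in edgeR). DPF1 + KRAB M0QYP0 had 273 and 15722, and 524 and 2167, and was not called either (-3.93, SE 0.86, adjusted p 0.089 in edgeR). KRAB M0QYP0 + ID2, the next lowest, had 562 bound and 11576 unbound reads in replicate 1 and 544 and 3071 in replicate 2 (-3.42, SE 0.36, adjusted p 6.7e-05 in edgeR). DPF1 + KRAB Q3KP31 had 195 and 8305 reads in replicate 1 and 293 and 1765 in replicate 2 (-3.99, SE 0.47). KRAB P21506 + GSX1, with 3 bound reads in replicate 1, rested on fewer (-5.02, SE 1.24).

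A few partners left KRAB variants without a lower share, but with wide errors. JDP2, a bZIP repressor, + KRAB P21506 had 231 bound and 111 unbound reads in replicate 1 and 166 and 16 in replicate 2, scores of 1.69 and 2.82 (2.21, SE 1.35, adjusted p 0.37 in edgeR). KRAB Q3KP31 + JDP2 scored 3.27 and 0.25, and in the other order -2.00 and 4.67, with 3 unbound reads in replicate 2. KRAB M0QYP0 + ATF1 scored 0.58 and 0.36 on 226 unbound reads in replicate 1 and 18 in replicate 2. None of these pairs passed in either direction.

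Of the 6 ordered pairs of different KRAB variants, 3 were called lower. KRAB P21506 + KRAB Q3KP31 had 309 bound and 2582 unbound reads in replicate 1 and 254 and 1004 in replicate 2 (-2.51, SE 0.52), and KRAB M0QYP0 + KRAB Q3KP31 had 2659 and 20338, and 3281 and 6952 (-2.00, SE 0.33). The third was KRAB M0QYP0 + KRAB P21506 (-1.84, SE 0.34). Not called were KRAB P21506 + KRAB M0QYP0 (-1.84, SE 0.64, adjusted p 0.11 in edgeR), KRAB Q3KP31 + KRAB P21506 (-1.88, SE 0.63, adjusted p 0.067) and KRAB Q3KP31 + KRAB M0QYP0, which scored -0.20 and -1.03 (-0.65, SE 0.47).

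The effect of position was tested for the 79 candidate domains next to controls, and none passed (0% called; edgeR with Benjamini-Hochberg adjustment, 7 at an unadjusted p of 0.05 or less). The 5 largest contrasts are given as values. KIBRA had an effect of -0.22 when first and 1.32 when second (difference -1.54, SE 0.22, adjusted p 0.069). DPF1 had -1.25 when first and 0.25 when second (difference -1.50, SE 0.35, adjusted p 0.27). WWP2 had 1.10 and -0.33 (difference 1.42, SE 0.78, adjusted p 0.73), HXA13 had -0.44 and -1.71 (difference 1.27, SE 0.56, adjusted p 0.70) and HERC2 had -0.01 and -1.28 (difference 1.26, SE 0.45, adjusted p 0.56). With non-control partners, other pairs of the same libraries, the contrasts of DPF1 and KIBRA did not pass either: -2.15 and -0.15 for DPF1 (adjusted p 0.12), -0.47 and 0.89 for KIBRA (adjusted p 0.075). By pairs, 36 of 72 with DPF1 first and 2 of 75 with DPF1 second were called lower, and 5 of 77 with HERC2 first and 46 of 77 with HERC2 second. Of all pairs without a control, 13.2% were called lower. These pairs share the same libraries, and both domains were chosen after their values were seen. The counts are thus a description and not a test of position. KRAB P21506 (-2.10 and -2.20) and CBX1 (-1.14 and -1.11) had close values in both positions.

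Against the repression screen, in which the drug was still present, effects in the memory screen were smaller. In one edgeR fit of all 12 libraries the effect was higher (closer to or above the control level) in memory for 47 of the 79 domains and lower for 1, with 48% and 1% of all 100 domains called. The repression screen itself had 57 of the 79 domains called lower (58% of all 100). Of these, 28 were called lower in memory too and 29 were not, while 2, DPF1 and a silencer tile, were called in memory alone. The memory calls in this split are those of the 4 memory libraries; in the fit of all 12 libraries DPF1 (adjusted p 0.051 in edgeR) and HERC2 (adjusted p 0.061) were not called lower in memory. Over the 42 domains with an effect of -1 or less in repression, the memory effect was a median of 19.2% of the repression effect on the log2 scale. KRAB P21506 kept 45.6% (-2.15 against -4.73), KRAB M0QYP0 38.6% and KRAB Q3KP31 37.3%. MPP8 kept 35.4%, CBX1 30.4%, YAF2 26.4% and SUMO3 26.3%. SCMH1 (-2.17 in repression) and ID2 (-2.34), an inhibitor of helix-loop-helix factors, were at -0.27 and -0.32 in memory, where neither was called in the test of the memory libraries.

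For both homeodomains the difference between the screens did not pass. HXA13 was at -1.22 in repression and -1.03 in memory (difference 0.19, SE 0.49), and GSX1 at -0.66 and -0.91 (difference -0.25, SE 0.23). DPF1 was the one domain called lower in memory than in repression, 0.65 in repression and -0.40 in memory (difference -1.05, SE 0.23, adjusted p 4.0e-05 in edgeR). These differences depend on the 0 of each screen. Under total counts 23 domains were higher and 38 lower in memory, and with trimmed means over all pairs 21 and 38.

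**Figure D5:**
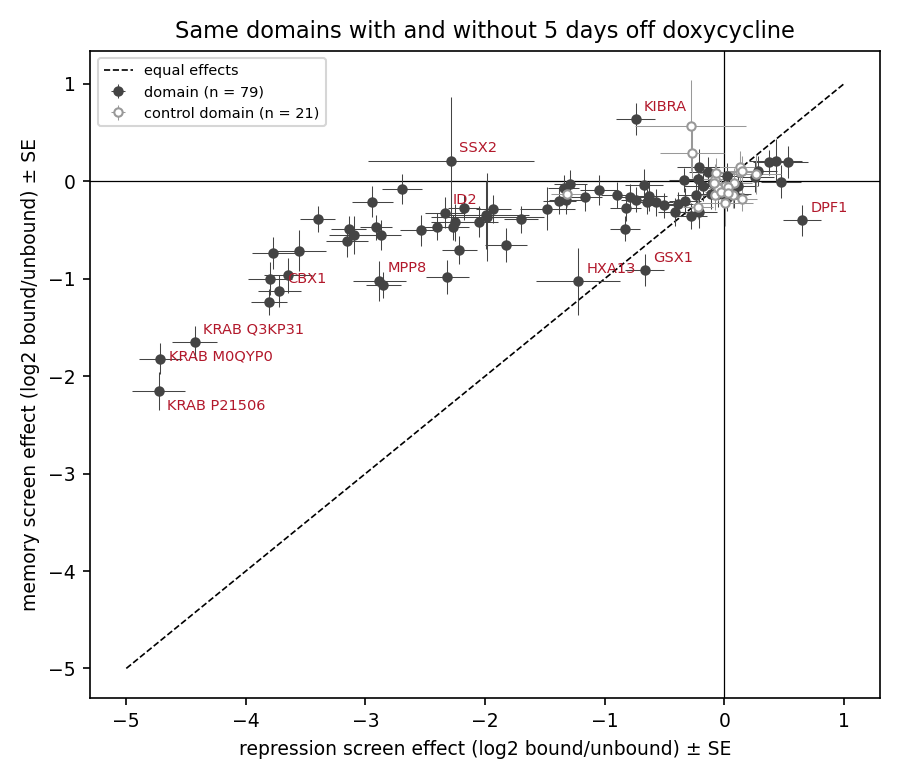
Effect of each domain next to control partners in the repression screen (horizontal axis) and the memory screen (vertical axis), in log2 bound over unbound relative to control pairs, with ± SE from an edgeR fit of 12 libraries; the dashed line marks equal effects. Most domains lie above the line, HXA13 and GSX1 lie near it, and DPF1 lies below it.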

How the data were processed

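The values were deposited raw counts of read pairs per ordered domain pair in 12 libraries. Per the labels and the submitters' processing notes, 30 bases were trimmed from each read end and each position was aligned separately with Bowtie2, for which the sources used here give no version. The filter and floor of 5 reads of the submitters' design text had not been applied in the files and were applied here. PCR ran for 33 cycles, and no molecular identifiers are stated, so errors cover counting and the spread between these 2 replicates only. In the domain fit that spread was largely shared between domains. The SE and adjusted p of a domain are therefore not a measure of how closely its own replicates agree.

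Counts of the 4 memory libraries were tested with edgeR 4.0.16 (R 4.3.3; quasi-likelihood, robust, replicate as a block, 1 residual degree of freedom), with libraries scaled on the pairs of 2 controls by TMM (trimmed means). Domain effects used counts summed over control partners. The block was used because bound and unbound cells are fractions of one culture; deviations of same-numbered libraries correlated at -0.06. Differences from the repression screen came from a fit of all 12 libraries (3 residual degrees of freedom), and deviations from additivity from limma 3.58.1. DESeq2 1.42.0 was an alternative. The tests were run on simulated data first.

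Named domains were, of those called and of one sign in both replicates, the 10 lowest and 6 highest; only 1 qualified as high. Named pairs held no control: the 10 lowest and 5 highest called with at least 5 reads in each library, the 10 lowest by the higher of both scores, and the 3 lowest and 3 highest partners of the 3 lowest domains, of which some are given. List members were named as well. Results for 1 domain that met the rule are not reported here. DPF1 and HERC2 in the position results, KRAB pairs with KRAB, and WWP2 were chosen after their values were seen. The members, lists and tests were chosen with earlier results of these data known. Alternatives covered scaling, test, filters, controls, partners, positions and replicates. The files do not pair the identifiers of silencer tiles with gene names; gene positions of the others came from RefSeq. The labels state 20 controls and discarded repressors; which these are is not stated there, so all 100 domains were kept.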

Additional observations from a re-analysis of the deposited data

Results flagged for a closer look

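The following domain effects next to control partners differed between the memory and the repression screen by the test of the difference itself (edgeR, Benjamini-Hochberg adjustment over 100 domains, SE in parentheses). The KRAB variants were higher in memory by 2.90 (0.22) for M0QYP0, 2.57 (0.27) for P21506 and 2.78 (0.24) for Q3KP31. Of the chromodomain proteins, CBX1 was higher by 2.59 (0.23), CDYL2 by 2.85 (0.30) and MPP8 by 1.86 (0.29). SUMO3 was higher by 2.80 (0.24), HERC2 by 2.55 (0.28), YAF2 by 2.68 (0.26) and SCMH1 by 1.90 (0.18). Tile 18 of ENSG00000100307 was higher by 2.57 (0.19) and tile 118 of ENSG00000076108 by 1.79 (0.19). ID2 was higher by 2.02 (0.22), MYBA by 1.28 (0.18), NCOA2 by 1.26 (0.19) and KIBRA by 1.38 (0.23). DPF1 alone among these was lower in memory, by a difference of -1.05 (0.23). The screens shared the control domains but were sequenced as separate libraries, and their 0 was set within each. Differences in the separation of fractions between screens were not tested.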

How the results depend on the processing

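Both the call counts and the effects depended on the processing. Over the 17 alternatives the effect ran from -2.46 to -1.65 for KRAB P21506, from -1.71 to -0.44 for HXA13 and from -0.22 to 1.32 for KIBRA. The 30 domains called lower and 1 called higher became 8 and 36 under total counts, 9 and 26 with trimmed means over all pairs, 10 and 0 with control pairs set to a median of 0, 7 and 0 with limma on the scores, 0 and 0 with random-sequence partners or with first positions alone (edgeR; 34 and 25 at an unadjusted p of 0.05 or less), and 14 to 20 lower when a replicate was left out. Higher calls were 2 without pairs of the same domain, 2 in second positions and 0 with DMD partners. Prior degrees of freedom, which set how far the spread is shared between domains, were infinite in the fit reported, 2.97 with control pairs at a median of 0, 1.73 with random-sequence partners and 1.43 with first positions. KIBRA turned to -0.22 in the first position; the cause was not tested. Over 11 named domains and 17 alternatives, 144 of 187 values kept direction and call and 42 lost the call.

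Pairs called lower (966) were 298 under total counts, 609 with trimmed means over all pairs, 2657 with DESeq2, 0 with limma (1688 pairs at an unadjusted p of 0.05 or less), and 1 to 334 when a replicate was left out. Pairs called higher (29) were 54, 118, 283, 0, and 0 to 101 in the same order, 45 with control pairs at a median of 0 and 63 without pairs of the same domain. Of 268 values of 21 named pairs, 183 kept direction and call. Pairs at or below -1 in both replicates (1290) were 655 when not centred on controls and 2548 at -0.5. With non-control partners, trimmed means over all pairs gave 21 lower and 3 higher. For memory minus repression, trimmed means over all pairs gave 21 higher and 38 lower and total counts 23 and 38.

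Without the replicate block 27 domains were called lower and 1 higher, and 798 pairs lower and 12 higher. The pairing changed no call of a named domain, and 5 of 21 named pairs lost theirs without the block. Depth limited pairs with few bound reads.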
